A study of Mus musculus with 7 samples.

Results

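Glucose metabolism genes were followed in the atrioventricular canal of Hand2 null mouse embryos, from glucose uptake through glycolysis to lactate, with the branches to glycogen, to the pentose phosphate pathway and to the pyruvate dehydrogenase gate of the mitochondrion. The members are 40 genes of these steps, chosen by symbol, of 23284 gene symbols in the count tables, and all 40 passed the filter on low counts. They were chosen with earlier results of these data known, so counts over them are a description only. The tested canals came from 4 pools of Hand2 d/d embryos, in which the whole coding part of Hand2 had been deleted in the germline, so that the gene was missing from every tissue and not from the heart alone. They were set against 3 wild-type pools, numbered 2 to 4 in the labels, of the same outbred NMRI background. Each pool held 4 dissected canals, and embryos of both genotypes had 18 to 23 somites (E9.0-E9.25 in the design text, although the sample titles read e9.5). The labels say that pools of both genotypes were alike in somite stages and sex ratio. HAND2 belongs to the basic helix-loop-helix family of transcription factors. The canal is the part of the heart tube where valves begin to form.

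Glycolysis splits glucose into pyruvate and yields ATP without oxygen, and lactate dehydrogenase then regenerates the NAD that the pathway consumes. Most steps have several isozymes encoded by separate genes with different tissue preferences, and many of these genes are known targets of hypoxia-inducible factors, which bind DNA at a short element with the core ACGTG. The early embryonic heart is known to rely on glycolysis and to store glycogen.

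The 7 libraries held 27905601 to 44860753 reads in genes. Hand2 itself was at 0.187 to 0.792 CPM (reads scaled to equal totals over gene rows) in the 4 null libraries, against 42.3 to 47.3 CPM in the 3 wild-type libraries. The groups were far apart, as the genotype labels require. Reads aligned to several places, which the gene counts leave out, ran from 9.08% to 11.64% of all tallied reads in null libraries, and wild-type libraries had 12.22% to 13.81%. The 10 cardiomyocyte markers summed to 33839 to 40134 CPM in null canals and to 32786 to 37456 CPM in wild-type canals. They mark heart muscle and do not tell the canal from the rest of the heart.

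Of the 40 members, 16 rose in null canals and none fell. The test was edgeR's quasi-likelihood test, adjusted over all 14290 genes tested, of which 4.11% rose and 2.13% fell (6.24% in either direction). At an unadjusted p under 0.05 there were 22 members higher and 1 lower, where 13.5% of all genes were higher and 10.9% lower. DESeq2 called 20 members higher and 0 lower, and 7.01% of all genes higher and 5.42% lower. The median log2 fold change over the members was 0.46, against 0.02 over all genes tested. In 22 members every null library lay above every wild-type library, where 11.6% of all genes tested did so, and in 1 every null library lay below, as in 10.3% of all genes. The summed level of the members was 32132, 29747, 27229 and 28937 CPM in null pools 1 to 4, against 19861, 18658 and 20354 CPM in wild-type pools 2 to 4. The members thus took 2.72% to 3.21% of gene reads in the null pools, against 1.87% to 2.04% in the wild-type pools. In bulk tissue, more RNA per cell and more cells of a type that uses the gene cannot be told apart.

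The counts of members that rose were uneven along the pathway. From glucose transport to lactate export, 13 of 26 genes rose, with a median log2 fold change of 0.69. Of 7 genes of phosphoglucomutase and glycogen, 3 rose, with a median of 0.62. None of the 4 pentose phosphate genes and none of the 3 pyruvate dehydrogenase genes passed the test, with medians of 0.06 and 0.23. Sets this small with no gene called are not set apart from all genes tested, of which 4.11% rose. The pyruvate dehydrogenase count also depends on which kinases were chosen as members. Outside the members, the kinase genes Pdk1 (log2 fold change 0.82, edgeR adjusted p = 0.00640) and Pdk4 (1.08, adjusted p = 0.0163) rose. None of 6 other pentose phosphate genes tested rose.

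**Figure D1:**
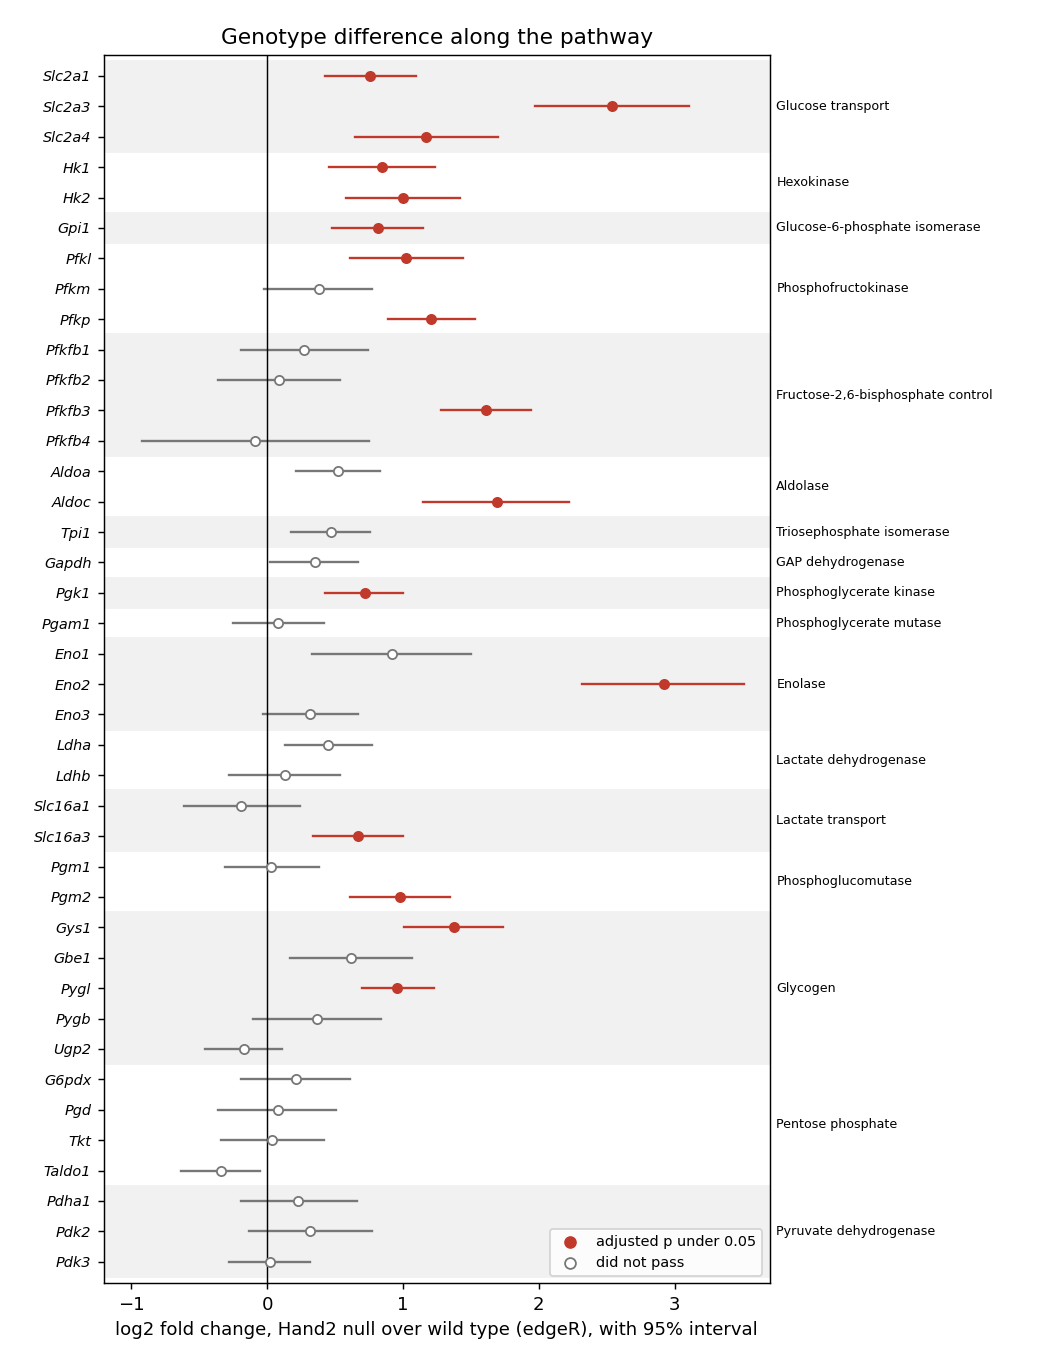
Log2 fold change of each of the 40 genes, Hand2 null over wild type (horizontal axis), ordered by pathway step from top to bottom, with the 95% interval of edgeR's estimate. Filled red points passed an adjusted p of 0.05 and open grey points did not. The largest values are those of Eno2 (2.92) and Slc2a3 (2.54), and the pentose phosphate genes lie around 0.

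The promoters of the members were searched for the hypoxia core ACGTG on both strands. The windows ran from 250 bases before to 50 after each annotated start (RefSeq sequences, build GRCm38.p6). The table held windows for 38 of the 40 members. The letters ACGTG occurred in 22 of these 38 genes (57.9%), against 21.8% of all 27025 genes with a window. Among members that rose the count was 9 of 14 genes (64.3%), and among members that did not pass it was 13 of 24 (54.2%). The longer CACGTG, which contains ACGTG on both strands, occurred in 15.8% of member genes and 8.09% of all genes. It was found in 1 of 14 members that rose (7.14%) and in 5 of 24 that did not pass (20.8%). CATCTG, an E-box of the kind that HAND proteins bind, occurred in 18.4% of member genes and 19.2% of all genes. It was found in 2 of 14 members that rose (14.3%) and in 5 of 24 that did not pass (20.8%). A match is a description of the letters and shows no binding, and members have more annotated starts per gene than the average gene. All genes were not matched to the members in base composition or level. Whether the letters have a part in the rise was not tested. Counted per window, ACGTG occurred in 45.6% of member windows and 19.6% of all windows.

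The following stretches of 100 bases upstream of the start show these letters in genes picked for display. They are 6 genes that rose and hold a match, Ldha, whose rise did not pass, and the pentose phosphate gene Taldo1, whose window holds none. For a gene with several starts, the one with the most upstream matches is shown. The choice does not stand for all members. No match was found for Eno2 or Slc2a3, which rose most, while the pentose phosphate gene G6pdx holds ACGTG 29 bases after its start. Each is written 5′ to 3′ on the strand of the gene, and capitals mark ACGTG or its reverse complement CACGT.
Slc2a1: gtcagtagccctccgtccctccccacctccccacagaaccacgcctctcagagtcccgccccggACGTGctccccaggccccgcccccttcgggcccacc
Hk2: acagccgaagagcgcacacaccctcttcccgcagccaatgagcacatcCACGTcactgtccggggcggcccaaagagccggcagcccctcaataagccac
Pfkfb3: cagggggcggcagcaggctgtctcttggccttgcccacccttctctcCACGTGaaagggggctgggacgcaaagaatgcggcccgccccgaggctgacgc
Pgk1: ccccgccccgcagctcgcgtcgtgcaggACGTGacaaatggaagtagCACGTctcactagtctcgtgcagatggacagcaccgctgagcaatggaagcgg
Slc16a3: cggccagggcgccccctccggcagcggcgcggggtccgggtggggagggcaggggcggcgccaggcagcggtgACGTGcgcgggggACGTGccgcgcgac
Pygl: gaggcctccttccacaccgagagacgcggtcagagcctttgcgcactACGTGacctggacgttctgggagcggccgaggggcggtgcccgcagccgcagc
Ldha: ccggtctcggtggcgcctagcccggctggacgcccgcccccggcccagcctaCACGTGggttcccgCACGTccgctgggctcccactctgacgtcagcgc
Taldo1: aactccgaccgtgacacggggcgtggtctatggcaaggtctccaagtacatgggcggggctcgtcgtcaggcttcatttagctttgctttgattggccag
In GRCm38.p6 these lie at chr4:119108645-119108744 (Slc2a1, plus strand), chr6:82774455-82774554 (Hk2, minus strand), chr2:11502091-11502190 (Pfkfb3, minus strand) and chrX:106186922-106187021 (Pgk1, plus strand). The others lie at chr11:120948967-120949066 (Slc16a3, plus strand), chr12:70227762-70227861 (Pygl, minus strand), chr7:46845704-46845803 (Ldha, plus strand) and chr7:141392060-141392159 (Taldo1, plus strand). The windows of Pgk1 and Pygl end 79 bases before the start, and the others end at the base before it. Slc16a3 holds a pair of ACGTG elements close to its start, and Pgk1 holds an ACGTG and a CACGT. Ldha has CACGTG and a further CACGT.

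Glucose enters cells through facilitative transporters. Slc2a1, which encodes GLUT1, the broadly expressed embryonic transporter, was at 1971, 1527, 1761 and 2110 CPM in null pools 1 to 4, against 1091, 989 and 1146 CPM in wild-type pools 2 to 4. The groups did not overlap, and the log2 fold change was 0.76 (SE 0.153, edgeR adjusted p = 0.0131). Slc2a3, which encodes the high-affinity transporter GLUT3, was at 1044, 1663, 786 and 950.4 CPM in null pools, against 192, 131 and 241 CPM in wild-type pools. Every null pool held over 3 times the highest wild-type value, with null pool 2 the highest, and the log2 fold change was 2.54 (SE 0.261, adjusted p = 0.000297), a 5.81-fold rise. Slc2a4, which encodes the insulin-responsive GLUT4, was low but also rose, with 20.2, 24.3, 23.3 and 13.4 CPM in null against 9.09, 6.50 and 11.1 CPM in wild-type pools (log2 fold change 1.17, SE 0.241, adjusted p = 0.0155). All 3 transporters therefore rose. Slc2a1 lost its call on omitting null pool 1 (adjusted p = 0.0566), wild-type pool 2 (0.0851) or wild-type pool 3 (0.0880), as did Slc2a4 (0.0523, 0.0804 and 0.0818). Slc2a4 also lost it when null pool 2 and wild-type pool 4 were both omitted (0.0531).

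Measured per kilobase of exon, so that transporters can be compared, Slc2a1 stayed the main one of the 3 in both genotypes, but Slc2a3 made up a larger part in null canals. The Slc2a3 share of the summed per-length level was 32.6% ± 9.61 in null (SD, n = 4) and 12.3% ± 2.45 in wild-type canals (SD, n = 3). Null pool 2 had 46.8%, the other null pools 26.6% to 30.1%, and the wild-type pools 9.75% to 14.6%. An exact permutation test (two-sided, 4 against 3 libraries) gave p = 0.0286, the smallest possible here. Shares were tested for 11 steps, and after Benjamini-Hochberg adjustment no step passed 0.05. This p became 0.0786, and at least 7 of the 11 steps would have had to reach the smallest p for any to pass.

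Hexokinase traps glucose as glucose-6-phosphate. Hk1, the broadly expressed form, was at 402, 331, 315 and 502 CPM in null pools, against 198, 197 and 245 CPM in wild-type pools (log2 fold change 0.85, SE 0.178, adjusted p = 0.0169). Hk2, the form of muscle and of hypoxic cells, was at 502, 372, 525 and 336 CPM in null pools, against 225, 228 and 194 CPM in wild-type pools (log2 fold change 1.00, SE 0.191, adjusted p = 0.0107). Neither gene overlapped between genotypes. Their balance overlapped between genotypes, with Hk2 at 49.2% ± 9.35 of Hk1 and Hk2 together in null and 46.7% ± 5.28 in wild-type canals (exact permutation p = 0.8, n = 4 and 3). Null pool 4 had the most Hk1 and the least Hk2 of the null pools. Hk1 lost its call on omitting null pool 1 (adjusted p = 0.0616), wild-type pool 2 (0.111) or wild-type pool 3 (0.0937), and Hk2 on omitting wild-type pool 2 (0.0633). Gpi1, the isomerase that makes fructose-6-phosphate, was at 1411, 1575, 1037 and 1191 CPM in null pools, against 742, 661 and 783 CPM in wild-type pools. It rose by 0.82 (SE 0.154, adjusted p = 0.00953) without overlap, and lost its call on omitting wild-type pool 2 (0.0641) or wild-type pool 3 (0.0642).

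Phosphofructokinase, a tetramer, commits sugar to glycolysis. Its platelet-type subunit gene Pfkp was at 508, 539.5, 402 and 558 CPM in null pools, against 213, 189 and 239 CPM in wild-type pools, and it rose most of the 3 (log2 fold change 1.21, SE 0.147, adjusted p = 0.000681). The liver-type gene Pfkl was at 543, 578, 375 and 679 CPM in null pools, against 257, 220.3 and 314 CPM in wild-type pools (1.02, SE 0.190, adjusted p = 0.00894). Both genes were separate between genotypes, with null pool 3 the lowest null library in each. The muscle-type gene Pfkm was at 55.7 to 82.7 CPM in null and 46.6 to 71.7 CPM in wild-type pools, which overlap, and did not pass (0.38, SE 0.182, adjusted p = 0.229). Per length, Pfkm made up 8.66% ± 0.565 of phosphofructokinase RNA in null and 13.5% ± 1.00 in wild-type canals, and Pfkp 41.0% ± 2.36 and 35.8% ± 1.62 (SD, n = 4 and 3; exact permutation p = 0.0571 for Pfkp, adjusted 0.0898). Pfkl lost its call on omitting wild-type pool 2 (0.0643) or wild-type pool 3 (0.0602).

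The PFKFB enzymes set the level of fructose-2,6-bisphosphate, the strongest activator of phosphofructokinase. Pfkfb3, the form with the highest kinase activity, was at 50.6, 44.8, 49.2 and 45.6 CPM in null pools, against 13.9, 16.3 and 15.9 CPM in wild-type pools. The null pools lay close together and far above wild type, and the log2 fold change was 1.61 (SE 0.152, adjusted p = 0.000149). The other members of the family did not pass. Pfkfb1 had a log2 fold change of 0.27 (SE 0.213), Pfkfb2 of 0.09 (SE 0.207) and Pfkfb4 of -0.09 (SE 0.384), all with overlapping groups and at most 19.5 CPM. The sign of Pfkfb2 changed to -0.11 on omitting null pool 2, and that of Pfkfb4 to 0.09 on omitting null pool 1. Pfkfb3 made up 50.3% ± 6.65 of the family per length in null and 26.8% ± 2.80 in wild-type canals (SD, n = 4 and 3; exact permutation p = 0.0286, adjusted 0.0786).

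Aldolase splits the 6-carbon sugar. Aldoa, the muscle and embryonic form and the member with the most reads, was at 7337, 6752, 5794 and 5779 CPM in null pools, against 4721, 4155 and 4414 CPM in wild-type pools. The groups were separate, but the log2 fold change of 0.52 (SE 0.141) narrowly missed the threshold (adjusted p = 0.0514). It passed with DESeq2 (0.0107), limma-voom (0.0491) or library size alone (0.0320), and on omitting null pool 3 (0.0390). Aldoc, the brain form, was at 60.5, 61.1, 41.5 and 32.3 CPM in null pools, against 15.2, 11.4 and 18.4 CPM in wild-type pools, and rose 3.22-fold (log2 fold change 1.69, SE 0.245, adjusted p = 0.00212). Per length it was still only 0.643% ± 0.127 of Aldoa and Aldoc together in null and 0.290% ± 0.0622 in wild-type canals (SD, n = 4 and 3; exact permutation p = 0.0571, adjusted 0.0898). The large fold therefore belonged to the minor isozyme.

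**Figure D2:**
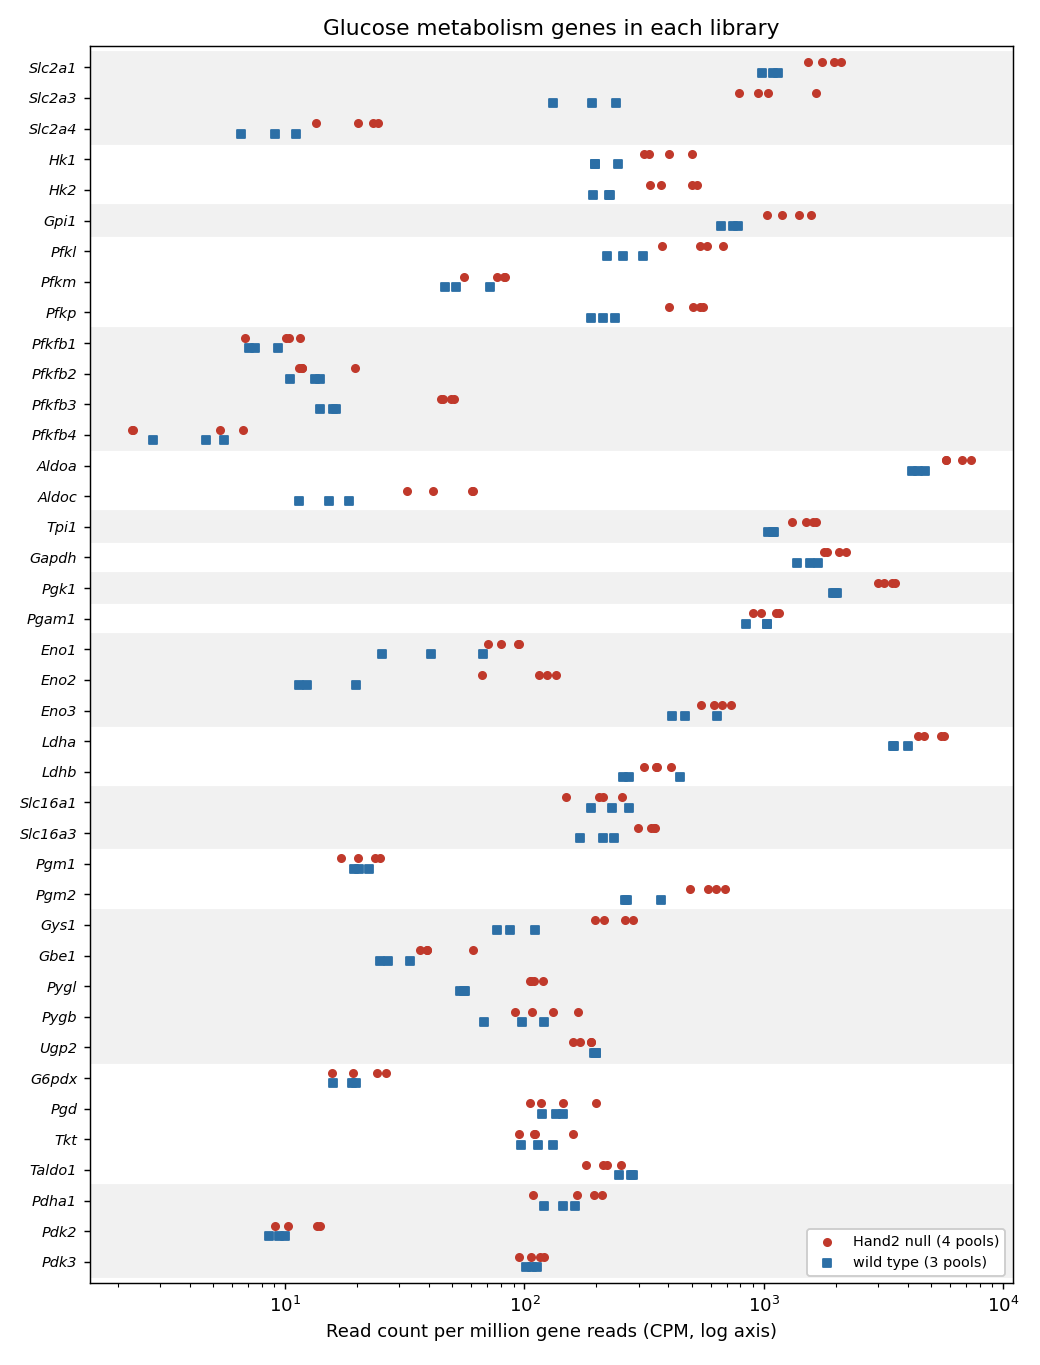
CPM of each of the 40 genes (horizontal log axis) in every library, with the Hand2 null pools as red circles above the wild-type pools as blue squares in each row. Every null pool lies above every wild-type pool in 22 genes, among them Slc2a3 (786 to 1663 against 131 to 241 CPM) and Pfkfb3 (44.8 to 50.6 against 13.9 to 16.3 CPM).

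Of the genes of the 4 middle steps, Pgk1 rose and Tpi1, Gapdh and Pgam1 did not pass. Tpi1, which interconverts the triose phosphates, was at 1607, 1650, 1500 and 1319 CPM in null pools, against 1095, 1108 and 1048 CPM in wild-type pools. Its log2 fold change of 0.47 (SE 0.132, adjusted p = 0.0568) did not pass although the groups were separate, and it passed on omitting null pool 4 (0.0464), with DESeq2 (0.0143) and with library size alone (0.0387). Gapdh, which makes NADH, was at 2211, 1844, 2070 and 1794 CPM in null pools, against 1686, 1563 and 1380 CPM in wild-type pools (0.35, SE 0.147, adjusted p = 0.173). Pgk1, the first ATP-yielding step, was at 3555, 3434, 3191 and 3015 CPM in null pools, against 1988, 1942 and 2021 CPM in wild-type pools. It rose by 0.72 (SE 0.129, adjusted p = 0.00770), with a gap between the groups many times the spread of the wild-type pools, and lost its call on omitting wild-type pool 2 (0.0660) or wild-type pool 3 (0.0523). Pgam1, the phosphoglycerate mutase, was at 903 to 1155 CPM in null and 845 to 1038 CPM in wild-type pools and did not pass (0.08, SE 0.155, adjusted p = 0.785, with a 95% interval of -0.25 to 0.42). Pgam2, the muscle mutase outside the 40 members, did not pass either (-0.10, SE 0.134, adjusted p = 0.695), with 615 ± 55.9 CPM in null and 651 ± 59.3 CPM in wild-type canals (SD, n = 4 and 3).

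These genes have many processed copies in the genome, so part of their reads cannot be placed. In the GENCODE M21 transcripts, 58.4% of the distinct 50-base words of Gapdh also occur in transcripts of other genes, as do 68.0% of those of Pgk1, 41.5% of Pgam1 and 49.5% of Eno1. For Tpi1 and Aldoa the shares were 6.8% and 6.6%, and for Slc2a3, Aldoc, Eno3 and Pfkfb4 they were 0.0%. Reads were not assigned by strand, and exons of other genes overlap 27.8% of the exon length of Pfkfb2, 21.2% of Pdha1, 17.4% of Pfkp, 12.3% of Gpi1 and 8.4% of Gys1, so these levels are uncertain as well. The levels of the genes with many copies are uncertain for that reason, and its part in their fold changes was not tested.

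Enolase showed the largest change of all members, in the form that was scarcest in wild type. Eno2, the neuronal form, was at 115, 135, 124 and 66.3 CPM in null pools, against 11.4, 12.3 and 19.7 CPM in wild-type pools. The log2 fold change was 2.92 (SE 0.274, adjusted p = 0.000149), a 7.54-fold rise, and even null pool 4, the lowest of the null pools, held over 3 times the highest wild-type value. Eno3, the muscle form, was at 546 to 728 CPM in null and 414 to 637 CPM in wild-type pools, which overlap (0.32, SE 0.159, adjusted p = 0.238). Eno1, the form of most tissues, was at only 93.7, 70.2, 79.5 and 94.5 CPM in null pools, against 25.4, 40.6 and 67.0 CPM in wild-type pools (0.92, SE 0.269, adjusted p = 0.0631). The Eno1 row was called on omitting wild-type pool 4 (1.33, adjusted p = 0.0113), with DESeq2 (0.0113), with limma-voom (0.0400) and with no filter on low counts (0.0410). An intronless copy, Gm5506, held more reads than Eno1 in every library, 370.1 to 571 CPM in null and 298 to 424 CPM in wild-type pools (log2 fold change 0.50, SE 0.171, adjusted p = 0.102). Reads of Eno1 and of this copy cannot be told apart with certainty. With the copy's reads added to Eno1, Eno2 made up 5.92% ± 1.87 of the 3 enolase genes per length in null and 1.07% ± 0.202 in wild-type canals (SD, n = 4 and 3), and without them 8.24% ± 2.39 and 1.48% ± 0.159 (exact permutation p = 0.0571 both ways).

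Pyruvate kinase is not among the 40 members but closes glycolysis, and its gene, listed as Pkm2, rose as well. It was at 4857, 5366, 3205 and 5776 CPM in null pools, against 2273, 2034 and 2794 CPM in wild-type pools (log2 fold change 1.00, SE 0.192, adjusted p = 0.0107). The row sums both splice forms of the gene, so nothing is known here of their ratio.

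Lactate dehydrogenase turns pyruvate into lactate. Ldha, which encodes the subunit that favours lactate, was at 5656, 4405, 4688 and 5538 CPM in null pools, against 3491, 3508 and 4032 CPM in wild-type pools. The groups were separate, but the log2 fold change of 0.45 (SE 0.149) did not pass (adjusted p = 0.0925). Ldhb, which encodes the other subunit, was at 316 to 410.5 CPM in null and 259 to 445 CPM in wild-type pools (0.13, SE 0.188, adjusted p = 0.718). Ldha made up 90.6% ± 0.841 of the pair per length in null and 88.7% ± 2.23 in wild-type canals, with overlap (SD, n = 4 and 3; exact permutation p = 0.1714).

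Monocarboxylate transporters carry lactate across the membrane. Slc16a3, which encodes MCT4, the low-affinity exporter of glycolytic cells, was at 339, 297, 351 and 347 CPM in null pools, against 237, 214 and 171 CPM in wild-type pools (log2 fold change 0.67, SE 0.152, adjusted p = 0.0247). Slc16a1, which encodes the broadly expressed MCT1, was at 149 to 256 CPM in null and 189 to 273 CPM in wild-type pools and did not pass (-0.19, SE 0.197, adjusted p = 0.608). Slc16a3 made up 61.9% ± 5.46 of the pair per length in null and 47.2% ± 3.22 in wild-type canals, without overlap (SD, n = 4 and 3; exact permutation p = 0.0286, adjusted 0.0786). The call of Slc16a3 was the least stable among the members, being lost on omitting null pool 1 (adjusted p = 0.0798), wild-type pool 2 (0.0706), 3 (0.0929) or 4 (0.0881), or when null pool 2 and wild-type pool 4 were both omitted (0.0564). Bsg, which encodes the chaperone that brings these transporters to the membrane, rose by 0.70 (SE 0.147, adjusted p = 0.0175), with 982 ± 127 CPM in null and 600.1 ± 8.15 CPM in wild-type canals (SD, n = 4 and 3).

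**Figure D3:**
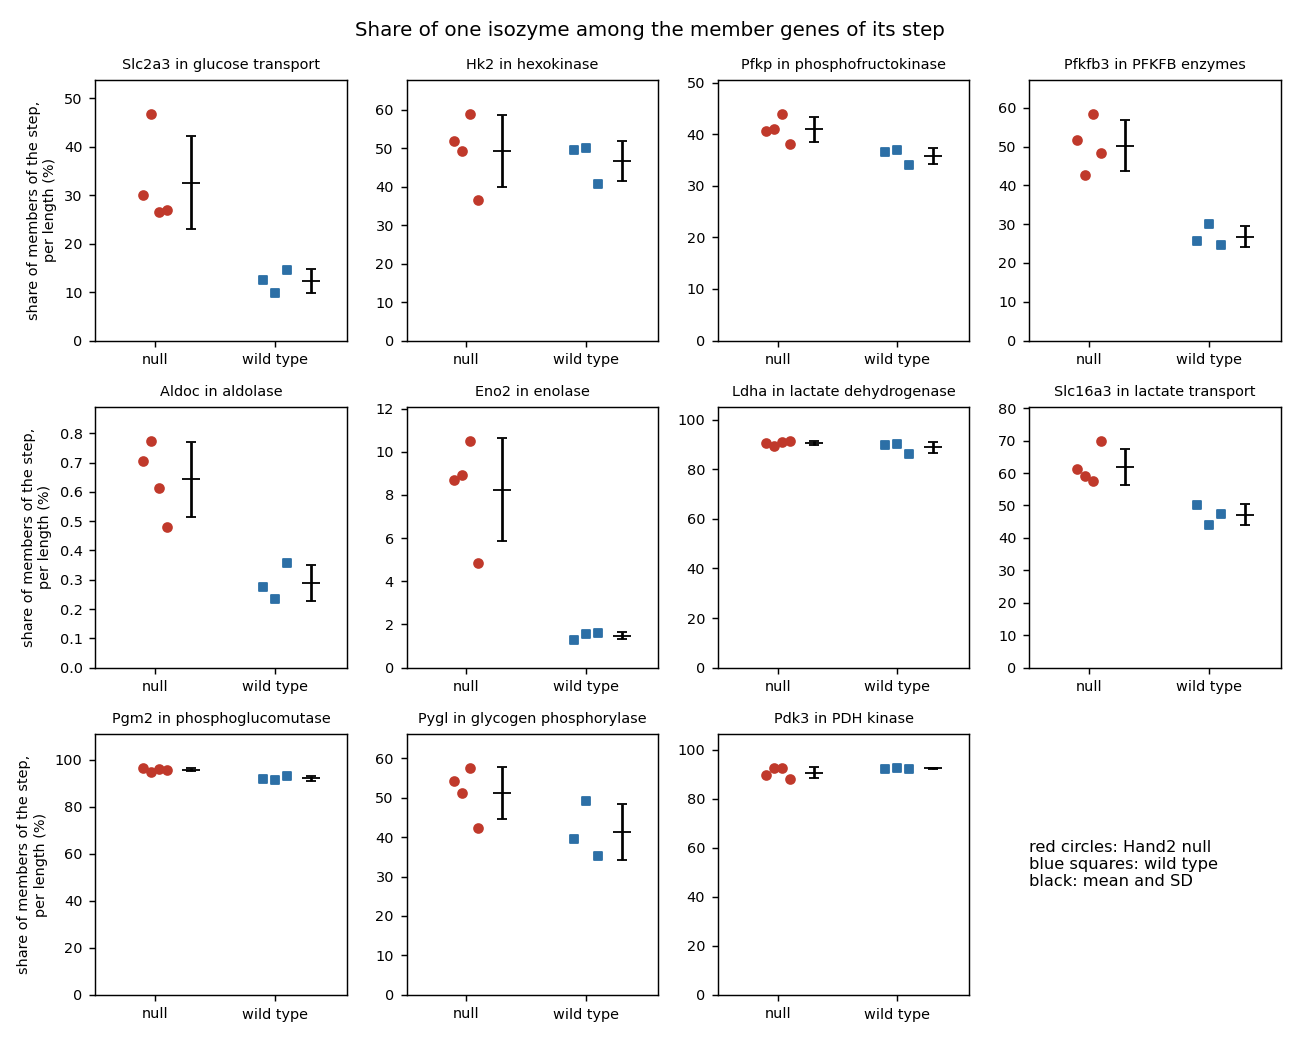
Share of a named isozyme in the summed per-length level of the member genes of its step, in percent, with 1 panel per step, Hand2 null pools (red circles) left of wild-type pools (blue squares) and the mean with its SD in black. The groups are apart for Slc2a3, Pfkp, Pfkfb3, Aldoc, Eno2, Slc16a3 and Pgm2 and overlap for Hk2, Ldha, Pygl and Pdk3.

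Each share counts only the member genes of a step. Pygm, the muscle phosphorylase at 131 ± 25.4 CPM in null and 137 ± 28.2 CPM in wild-type canals, is not in the Pygl share, nor is Pdk1 in the Pdk3 share (SD, n = 4 and 3). In 10 of the 11 steps the isozyme named is the member with the largest log2 fold change of its step, and it was chosen with earlier results known. That choice fixes the direction of most shares, so their p-values are no independent support for it.

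Glycogen is made from glucose-1-phosphate, which phosphoglucomutase forms. The row named Pgm2 was at 690.5, 586, 494 and 633 CPM in null pools, against 269, 264 and 371 CPM in wild-type pools (log2 fold change 0.98, SE 0.168, adjusted p = 0.00562), and lost its call on omitting wild-type pool 2 (0.0585). The row named Pgm1 was at 17.1 to 24.8 CPM in null and 19.3 to 22.3 CPM in wild-type pools (0.03, SE 0.157, adjusted p = 0.925). The GRCm38 tables give Pgm2 as an older name of Pgm1 and Pgm1 as an older name of Pgm2, so these rows may carry each other's present names. Their exon lengths, and so the Pgm2 share, and their promoter windows were matched on the assumption that they do. Ugp2, which makes the UDP-glucose that glycogen is built from, did not pass (-0.17, SE 0.132, adjusted p = 0.449), with all 4 null pools (159 to 190.5 CPM) just below the wild-type pools (195 to 199.8 CPM).

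Gys1, the glycogen synthase of muscle and most tissues, was at 264, 285, 198 and 215 CPM in null pools, against 87.2, 77.0 and 111 CPM in wild-type pools. It rose 2.59-fold (log2 fold change 1.38, SE 0.169, adjusted p = 0.000771), with the groups far apart. Gbe1, the branching enzyme, was at 60.9, 39.2, 36.5 and 39.1 CPM in null pools, against 26.9, 25.0 and 33.3 CPM in wild-type pools, and did not pass (0.62, SE 0.206, adjusted p = 0.0928), although DESeq2 called it (0.0491). Pygl, the liver-type phosphorylase that breaks glycogen down, was at 110.1, 119, 106 and 105 CPM in null pools, against 54.0, 56.1 and 56.5 CPM in wild-type pools. It had the smallest SE of the members (log2 fold change 0.96, SE 0.123, adjusted p = 0.000911). Pygb, the brain-type phosphorylase, was at 91.2 to 168 CPM in null and 68.0 to 121 CPM in wild-type pools and did not pass (0.37, SE 0.216, adjusted p = 0.320). RNAs of synthesis and of breakdown thus both rose.

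Among 20 other glycogen genes tested, 4 rose and none fell. Ppp1r3b and Ppp1r3c, which target protein phosphatase to glycogen, rose by 0.94 (SE 0.130, adjusted p = 0.00151) and 1.19 (SE 0.171, adjusted p = 0.00206). Ppp1r3b was at 128 ± 5.59 CPM in null and 65.9 ± 7.80 CPM in wild-type canals, and Ppp1r3c at 125 ± 23.5 and 54.6 ± 1.25 CPM (SD, n = 4 and 3). Ppp1r3a and Ppp1r3d of the same family had negative values and did not pass. Ppp1r3a was at -0.69 (SE 0.198, edgeR adjusted p = 0.0607) and Ppp1r3d at -0.13 (SE 0.185, adjusted p = 0.708). Gaa, the lysosomal glucosidase that digests glycogen, rose by 0.65 (SE 0.163, adjusted p = 0.0396). Epm2a, the glycogen phosphatase laforin, was called (adjusted p = 0.0313) at very low levels of 0.308 to 0.696 CPM in null and 0.0223 to 0.143 CPM in wild-type pools, where 3 reads correspond to 0.0669 to 0.1075 CPM.

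The pentose phosphate pathway branches off at glucose-6-phosphate and makes NADPH and ribose for nucleotides. G6pdx, its entry enzyme, was at 15.6 to 26.3 CPM in null and 15.8 to 19.7 CPM in wild-type pools (log2 fold change 0.21, SE 0.183, adjusted p = 0.528). Pgd, the next dehydrogenase, was at 105 to 199 CPM in null and 118 to 145 CPM in wild-type pools (0.08, SE 0.200, adjusted p = 0.849). Tkt, the transketolase, was at 95.1 to 159 CPM in null and 97.0 to 131 CPM in wild-type pools (0.04, SE 0.175, adjusted p = 0.916). All 3 spread more widely among null than among wild-type pools, with null pool 4 the highest. Taldo1, the transaldolase, was at 213, 222, 180 and 254 CPM in null pools, against 279, 249 and 284 CPM in wild-type pools, the largest negative value among members, and did not pass (-0.34, SE 0.135, adjusted p = 0.148). The 95% intervals ran from -0.19 to 0.61 for G6pdx, -0.36 to 0.51 for Pgd, -0.34 to 0.42 for Tkt and -0.63 to -0.05 for Taldo1, so a doubling lies outside each of them. Of 6 other pentose phosphate genes tested, none passed and all 6 had negative values. The most abundant were Pgls at -0.18 (SE 0.165) and Prps1 at -0.29 (SE 0.139). The lowest value was that of Rpia, a ribose-5-phosphate isomerase named here after its values were seen, at 1.14 ± 0.455 CPM in null and 2.71 ± 0.316 CPM in wild-type canals without overlap (SD, n = 4 and 3; -1.26, SE 0.368, edgeR adjusted p = 0.0635).

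Pyruvate enters the mitochondrion and is oxidised by pyruvate dehydrogenase, which PDK kinases switch off. Pdha1, the catalytic subunit gene, was at 109 to 210.3 CPM in null and 121 to 163 CPM in wild-type pools (log2 fold change 0.23, SE 0.194, adjusted p = 0.499). The kinase genes Pdk2 (0.32, SE 0.205, adjusted p = 0.367) and Pdk3 (0.02, SE 0.139, adjusted p = 0.957) did not pass either, with Pdk3 at 94.8 to 120.5 CPM in null and 101 to 113 CPM in wild-type pools. Pdk3 made up 90.8% ± 2.20 of the pair per length in null and 92.4% ± 0.167 in wild-type canals (SD, n = 4 and 3; exact permutation p = 0.3714). Pdk1, a known hypoxia target, was at 253, 271, 225 and 192 CPM in null pools, against 134, 132 and 128 CPM in wild-type pools (0.82, SE 0.143, adjusted p = 0.00640). Pdk4, the kinase of fasting tissues, was at 16.1 ± 1.58 CPM in null and 7.52 ± 2.72 CPM in wild-type canals (SD, n = 4 and 3; 1.08, SE 0.226, adjusted p = 0.0163). These 2 were the called genes among 11 that bring pyruvate into the mitochondrion, and none fell.

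Across all other pathway genes, 72 of 91 could be tested, of which 11 rose (15.3%) and none fell, and their median log2 fold change was 0.06. Of all genes tested, 4.11% rose and 2.13% fell. Among the 11 were the gluconeogenic enzymes Pck2 (0.84, SE 0.182, adjusted p = 0.0202) and Pcx (1.02, SE 0.213, adjusted p = 0.0164). Pck2 was at 29.9 ± 5.24 CPM in null and 16.5 ± 2.65 CPM in wild-type canals (SD, n = 4 and 3). None of 10 genes of the NADH shuttles passed, and the most abundant, Mdh2 and Mdh1, both had -0.10. Of these 72 genes, 2 rose on omitting wild-type pool 2, 3 on omitting wild-type pool 3, 4 on omitting null pool 1 and 7 on omitting null pool 2. Over all genes, 210, 246, 284 and 389 rose in the same fits, in that order.

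Fold and level went together only weakly. The 6 members with at least 500 CPM per kilobase in wild type (Aldoa, Ldha, Pgk1, Gapdh, Tpi1 and Pgam1) had log2 fold changes between 0.08 and 0.72, while the 6 with the largest log2 fold changes, 1.21 to 2.92 (Eno2, Slc2a3, Aldoc, Pfkfb3, Gys1 and Pfkp), had 2.78 to 49.7 CPM per kilobase. Over the 40 genes the rank correlation of the wild-type level and the log2 fold change was -0.14, a description across genes that share the same 7 libraries. In reads the abundant genes still counted most. Aldoa, Ldha and Pgk1 made up 20.1%, 14.1% and 13.3% of the summed difference of 9886.6 CPM between the genotype means, although Aldoa and Ldha did not pass the test one by one. Slc2a3 and Slc2a1 added 9.3% and 7.8%.

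**Figure D4:**
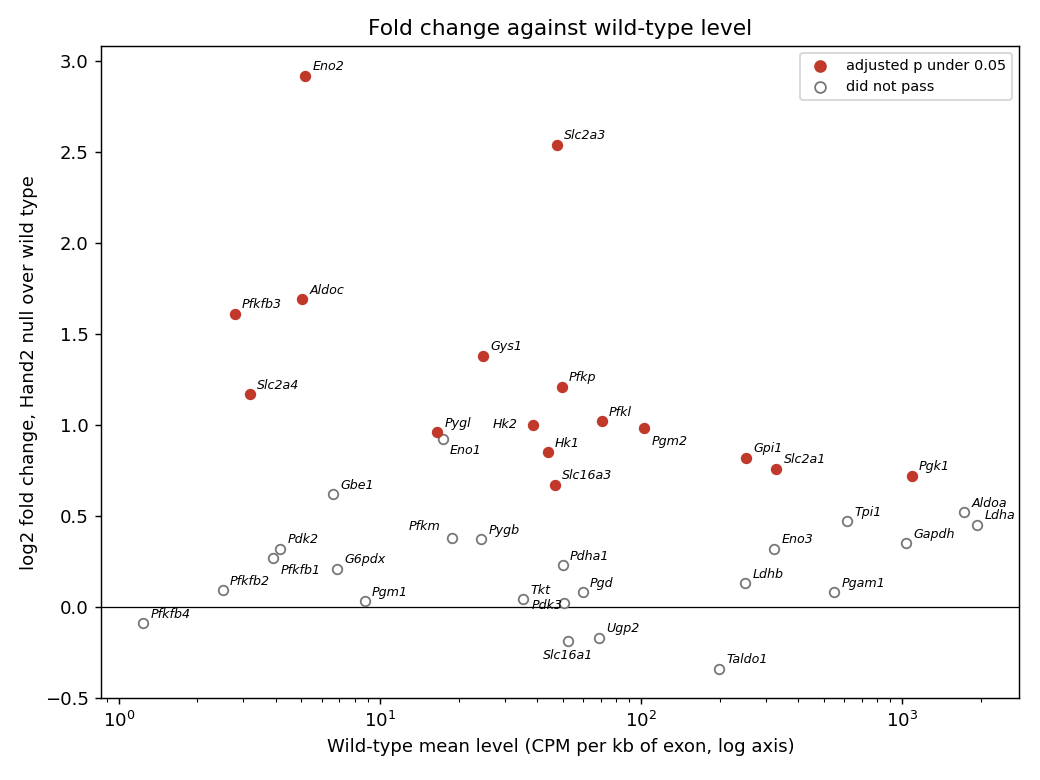
Log2 fold change, Hand2 null over wild type (vertical axis), against the mean wild-type level in CPM per kilobase of exon (horizontal log axis) for the 40 genes, with filled red points for an adjusted p under 0.05. Eno2 and Slc2a3 lie highest, and the 6 genes with at least 500 CPM per kilobase lie between 0.08 and 0.72.

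The pools of a genotype differed among themselves. Among the 16 members that rose, null pool 2 was the highest null library in 7, pool 4 in 4, pool 1 in 3 and pool 3 in 2, while pool 3 was the lowest in 7 and pool 4 in 6. Wild-type pool 4 was the highest wild-type library in 13 of the 16 and pool 3 the lowest in 11. The 7 members called in every fit with 1 library left out were Slc2a3, Pfkp, Pfkfb3, Aldoc, Eno2, Gys1 and Pygl. The number that rose was 7 on omitting wild-type pool 2 and 9 on omitting wild-type pool 3, and lay between 12 and 17 without any other library.

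Other genes moved with these, where 4.11% of all genes tested rose and 2.13% fell. The lists were chosen with earlier results of these data known, so their counts are a description only. Of 19 hypoxia-responsive genes outside glucose metabolism, 17 rose and none fell, with a median log2 fold change of 1.79. They summed to 3922 to 5963 CPM in null pools, against 2009 to 2284 CPM in wild-type pools. Among the 10 cardiomyocyte markers 1 rose and none fell, and Actc1 and Myl7 held the most reads of their sum. The marker that rose was Myh7, at 1178 ± 228 CPM in null and 666 ± 27.3 CPM in wild-type canals (SD, n = 4 and 3). Tnni1 lay below wild type in every null pool but did not pass (-0.33, SE 0.125, edgeR adjusted p = 0.127). Of 10 endocardial and endothelial markers 5 rose, with sums of 477 to 538 CPM in null and 317 to 366 CPM in wild-type pools. Of 10 cushion mesenchyme markers 5 fell, with sums of 455 to 669 CPM in null and 615 to 788 CPM in wild-type pools, and of 135 to 191 CPM in null and 237 to 460 CPM in wild-type pools for the 9 genes other than the abundant Vcan. Of 7 epicardial markers tested 1 rose, the keratin Krt19, and the sums were 432 to 641 CPM in null pools and 138 to 158 CPM in wild-type pools. Krt19 carried most of this gap, and the other 7 genes of that list summed to 63.6 to 80.5 CPM in null and 48.4 to 68.6 CPM in wild-type pools. Of 6 foregut markers tested, 2 rose, Krt8 and Krt18, with sums of 284 to 362 CPM in null and 166 to 193 CPM in wild-type pools. These sums were nearly all Krt8 and Krt18, and the other 6 foregut genes summed to 1.63 to 16.1 CPM in null and 1.90 to 8.60 CPM in wild-type pools, which overlap. Of 8 erythroid markers tested 1 fell, with sums of 5639 to 14581 CPM in null pools and 9377 to 22145 CPM in wild-type pools, the highest being wild-type pool 4. Of 4 macrophage markers tested 1 rose and 1 fell (9.70 to 16.2 CPM in null, 13.9 to 15.2 CPM in wild-type pools), and of 4 neural markers 1 fell (13.2 to 16.1 CPM in null, 21.2 to 59.2 CPM in wild-type pools). The neural marker that fell was Tubb3, at 4.26 to 5.33 CPM in null and 12.0 to 38.7 CPM in wild-type pools. Elavl3, Elavl4 and Pax3 overlapped between genotypes and did not pass. In no list other than the erythroid one, where 2 of 10 were at 0, was a marker at 0 in every library. The part of cell makeup in the changes of the glucose metabolism genes was not tested.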

How the data were processed

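RNA of pooled canals was depleted of ribosomal RNA, amplified and sequenced as unstranded single reads, per the labels' protocols. The deposited files hold raw read counts per gene symbol. Build mm9 and the tools TopHat2 2.0.13, SAMtools and HTSeq come from the submitters' processing notes, and the annotation is not given in the sources used here. The 5 summary rows were left out. Levels are CPM over gene rows, and per-length levels divide by the exon union in GENCODE M21 (20886 symbols matched directly, 1938 by older names, 460 not). The main test was edgeR 4.0.16 in R 4.3.3 (TMM, minimum count 10, genotype as the only term, 7 libraries, Benjamini-Hochberg over all genes, threshold 0.05). The standard error is the log2 fold change over the square root of F. Libraries of 1 genotype differed beyond sampling noise, so each pool counted as 1 replicate, and p-values measure the spread between pools. Isozyme shares used exact permutation tests in Python 3.11.15. Alternatives included limma 3.58.1 and DESeq2 1.42.0. The fit was tested on simulated counts. The members and lists were chosen with earlier results of these data known. All 40 members are named, and of the other pathway genes those called (1 is not reported here), or the 2 most abundant of a list with none. Counting error alone puts the floor at 3 reads, or 0.0669 to 0.1075 CPM.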

Additional observations from a re-analysis of the deposited data

Results flagged for a closer look

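Among the 4 null libraries, a single library stood apart from the other 3 in 2 of 51 quantities examined (40 gene levels and 11 isozyme shares). Chance alone would set 1 in 20 such groups apart. Pfkfb2 was at 19.5 CPM in null pool 2, against 11.4 to 11.7 CPM in the other null pools, and its level there lay above all wild-type pools while the other null pools lay within their range. Gbe1 was at 60.9 CPM in null pool 1, against 36.5 to 39.2 CPM in the other null pools, and all 4 lay above wild type. Groups of 3 wild-type libraries are too small for this comparison.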

How the results depend on the processing

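No scaling, filter or tool ended the call of any of the 16 members that rose. With DESeq2, 993 genes rose and 768 fell over all genes, and 2 other pathway genes fell. With limma-voom 1 other pathway gene fell. Omitting null pool 2 together with wild-type pool 4 gave 298 genes higher and 123 lower, and 4 other pathway genes higher. Omitting 1 pool at a time gave 210 to 946 genes higher, 46 to 652 lower, 7 to 17 members higher, 0 lower, 2 to 12 other pathway genes higher and 0 to 2 lower. The cause was not tested. Both genotypes have replicate numbers 2, 3 and 4. Same-numbered deviations from the group means correlated at -0.087, 0.412 and 0.253, and differently numbered ones at -0.373 to 0.189. These values do not settle whether the numbers pair the libraries. With the replicate block on these 6 libraries, 761 genes rose and 578 fell, 17 members rose, and 10 other pathway genes rose and 1 fell. Without the block on the same 6 libraries, 284 rose and 90 fell, with 12 members and 4 other pathway genes higher.

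Every log2 fold change that changed sign belonged to a gene that did not pass. When 1 pool at a time was omitted, the values ran from -0.11 (null pool 2) to 0.16 for Pfkfb2, which was also negative when wild-type pool 3 was omitted (-0.02), and from -0.38 to 0.11 (wild-type pool 4) for Pfkfb4, also positive when null pool 1 (0.09) or null pool 3 (0.10) was omitted. They ran from -0.02 (wild-type pool 4) to 0.17 for Pgam1, -0.0026 (wild-type pool 3) to 0.40 for Ldhb and -0.02 (null pool 2, null pool 4 or wild-type pool 2) to 0.12 for Pgm1. They ran from -0.13 (null pool 4) to 0.19 for Pgd, -0.13 (null pool 4) to 0.14 for Tkt, also -0.05 with wild-type pool 3 omitted, and -0.05 (null pool 3) to 0.08 for Pdk3, also -0.04 with null pool 1 and -0.01 with wild-type pool 3 omitted. The difference in the Hk2 share ran from -0.802 points (null pool 3) to 6.67, and was -0.572 with wild-type pool 4 omitted. With null pool 2 and wild-type pool 4 both omitted it was -0.594, and Pfkfb2 was -0.07. With the block Pfkfb4 was 0.04, Pgd -0.02 and Pdk3 -0.05, and without it on the same libraries Pfkfb4 was 0.09 and Pdk3 -0.04. With upper-quartile scaling Pdk3 was -0.0030. Undivided by length, the Eno2 share differed by 10.7 points. Depth limits mainly Epm2a, near 3 reads in wild type.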
